A study of Mus musculus with 12 samples.

Results

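The genes described here make oxysterols, sense them or store cholesterol as ester, and were followed in the cerebellum of mice that lack Npc1. The members were the probe sets that the platform annotation assigns to 7 listed genes: Cyp46a1, Cyp27a1 and Ch25h (synthesis), Nr1h2, Nr1h3 and Osbp (sensing), and Soat1 (esterification). The annotation pairs 5 of the 7 genes with 1 probe set each, out of 12393 genes in all that have a probe set of their own. Soat1 and Nr1h2 were not analysed here, since no probe set is assigned to them in that annotation. Cerebellar RNA of 12 BALB/c mice was labelled with biotin and measured on 12 Affymetrix arrays, 1 animal per array. The 4 groups of 3 mice were Npc1-/- at postnatal day (P) 49, Npc1+/+ at P49, Npc1-/- at P21 and Npc1+/+ at P21, called null and wild type below. The labels describe a loss of Npc1 in the whole animal, do not name the allele, and give 11 mice as female and 1, null P49 replicate 1, as male. The study set the null cerebellum against the wild-type one at a younger and an older age.

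Oxysterols are cholesterol molecules that carry an added hydroxyl group, which lets them cross membranes and leave a cell more easily than cholesterol does. Cyp46a1 is the cholesterol hydroxylase of neurons, through which the brain exports most of its surplus cholesterol. Cyp27a1 is a mitochondrial sterol hydroxylase, and Ch25h makes 25-hydroxycholesterol and is known as an inducible gene of macrophages. Oxysterols bind the liver X receptors, Nr1h3 (LXR alpha) and Nr1h2 (LXR beta), which raise genes of cholesterol export such as Abca1. Osbp binds oxysterols and exchanges sterol for a phosphoinositide between the endoplasmic reticulum and the Golgi. Soat1 esterifies cholesterol that reaches the endoplasmic reticulum. Npc1 carries cholesterol out of the lysosome.

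The promoters of a pair of synthesis genes are printed because these genes had the widest and one of the narrowest ranges over the 12 arrays, a choice made after their values were seen. Both windows run from 250 bases before to 50 bases after the RefSeq start on GRCm38.p6. The Ch25h promoter is chr19:34475099-34475398 on the minus strand and the Cyp46a1 promoter is chr12:108334066-108334365 on the plus strand. Capitals in Cyp46a1 mark the letters of a GC box, GGGCGG. Capitals in Ch25h mark the cAMP response element TGACGTCA and, further from the start, the box TATAAA.
Ch25h: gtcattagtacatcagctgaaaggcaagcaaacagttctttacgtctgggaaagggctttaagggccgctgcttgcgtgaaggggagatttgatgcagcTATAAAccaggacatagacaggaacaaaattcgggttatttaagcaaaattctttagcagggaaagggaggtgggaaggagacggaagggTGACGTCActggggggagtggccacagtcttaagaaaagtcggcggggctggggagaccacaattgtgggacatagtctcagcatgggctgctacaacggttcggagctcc
Cyp46a1: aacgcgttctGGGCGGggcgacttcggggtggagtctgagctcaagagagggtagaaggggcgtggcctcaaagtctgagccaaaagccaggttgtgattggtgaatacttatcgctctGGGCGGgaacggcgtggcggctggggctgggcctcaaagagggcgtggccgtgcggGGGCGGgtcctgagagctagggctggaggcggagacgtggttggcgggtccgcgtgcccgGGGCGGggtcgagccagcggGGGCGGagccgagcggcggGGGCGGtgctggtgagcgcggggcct
Each motif was searched on both strands in the promoters of all 7 genes, which all have an entry, and in 32851 promoters of the same length. Ch25h held 1 TGACGTCA, found in 1.79% of all promoters, and 1 TATAAA, found in 13.6%, but no GGGCGG. Cyp46a1 held 6 GGGCGG and Osbp 4, while 5.49% of all promoters held 4 or more and 35.7% held at least 1. Cyp27a1 and Soat1 held 1 GGGCGG each, and the Nr1h2 and Nr1h3 windows held none of the 3 motifs. G and C made up 51.0% of the bases in the Ch25h window, 70.3% in Cyp46a1 and 67.0% in Osbp, against a median of 52.7% over all promoters. A match describes the letters of the window only.

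Before any result, the arrays were set against their labels. Npc1 had log2 signals of 10.53, 9.96 and 9.88 in null P49 mice, against 11.35, 11.57 and 11.75 in wild-type P49 mice. At P21 it had 10.12, 8.25 and 9.65 in null mice, against 11.06, 11.32 and 11.48 in wild-type mice. Npc1 was thus lower on every null array than on every wild-type array of its age, by -1.43 ± 0.38 at P49 (adjusted p = 0.102) and -1.95 ± 0.38 at P21 (adjusted p = 0.13), and neither difference passed the test. Here and below a difference is on the log2 scale with its standard error, and the p is limma's, Benjamini-Hochberg adjusted over all 22626 probe sets, with a threshold of 0.05. Where the probes lie relative to the Npc1 lesion is not given in the sources used here. Genes of the sex chromosomes did not match the labelled sex on 4 arrays, and on 2 of them they were mixed. Xist, which the inactive X chromosome makes, had 15.61 to 15.86 in its brightest probe set on 9 arrays, among them null P49 replicate 1, labelled male. Among the arrays labelled female, null P21 replicates 2 and 3 had 13.01 and 13.36, and replicate 2 of the wild-type P21 mice had 9.28. The Y-linked gene Eif2s3y had 9.25 and 12.67 on these null arrays and 12.72 on this wild-type array, against 7.93 on null P49 replicate 1 and at most 8.91 on the 9 arrays with high Xist. The Xist levels of both null P21 arrays thus lay between those of the other arrays, and the Eif2s3y level of replicate 2 was close to 8.91. Results are therefore also given without these arrays where they touch a named value, and leaving out the 3 P21 arrays keeps 1 null P21 array, which is then assumed to vary like the others.

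None of the 5 measured genes passed the test between genotypes at either age. At P49 the null arrays all had higher Ch25h values and lower Cyp27a1 and Nr1h3 values than the wild-type ones, while Cyp46a1 and Osbp overlapped. In limma's test 0 of 5 members were called at P49, against 1.39% of all probe sets, with 2 of 5 (Ch25h and Cyp27a1) at an unadjusted p under 0.05, as were 9.44% of all probe sets. At P21 0 of 5 were called, against 0.0309% of all probe sets, with 0 of 5 at an unadjusted p under 0.05, where 8.00% of all probe sets had one. The groups did not overlap for 3 of 5 members at P49, where 19.0% of all probe sets did not overlap, and for 0 of 5 at P21, where 11.0% did not. In bulk tissue, fewer cells of a type and less RNA per cell cannot be told apart.

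**Figure D1:**
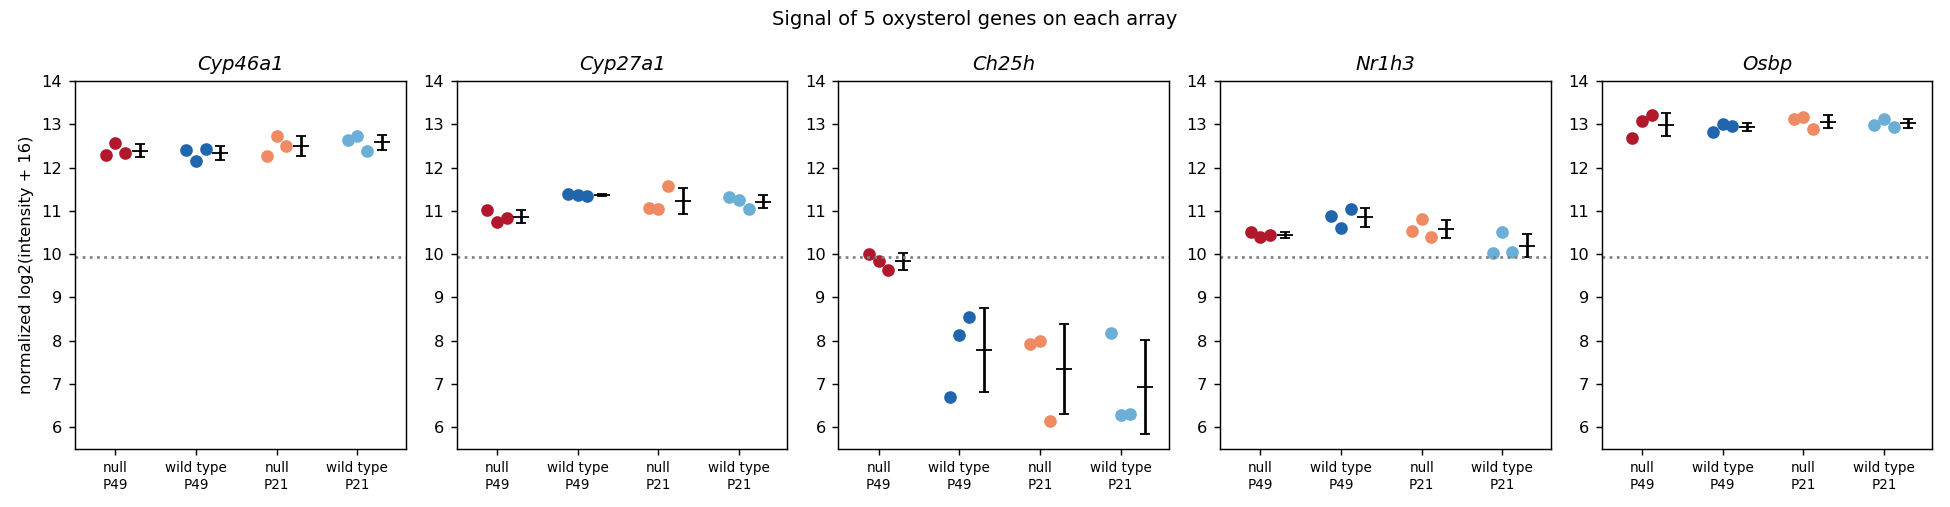
Normalized log2 signal (intensity plus 16) of the 5 measured genes, 1 point per array, with the group mean and SD beside the points (n = 3 per group) and a dotted line at the 40th percentile of all probe set means (9.93). Ch25h sits at 9.63 to 10.01 in null P49 mice and no higher than 8.55 elsewhere, while each of the other 4 genes spans at most 1.02 over the 12 arrays.

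Ch25h had log2 signals of 10.01, 9.85 and 9.63 in null P49 mice, against 6.69, 8.12 and 8.55 in wild-type P49 mice. In deposited intensity these were 1101, 1001 and 804 in null P49 mice, against 86, 274 and 354 in wild-type P49 mice. All 3 null P49 arrays lay above every other array of the study. The difference at P49 was 2.04 ± 0.68 on the log2 scale (95% interval 0.59 to 3.50), with an adjusted p of 0.253. At P21 Ch25h had 7.91, 7.99 and 6.13 in null mice, against 8.17, 6.27 and 6.31 in wild-type mice, and the groups overlapped. The P21 difference was 0.43 ± 0.68 (95% interval -1.03 to 1.88, adjusted p = 0.883). The difference between the ages in the genotype effect was 1.62 ± 0.96 (adjusted p = 0.786), so a larger effect at P49 was not shown.

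Ch25h is a dim probe set, below the 40th percentile of all probe set means (9.93) on 11 of the 12 arrays. Outside the null P49 group it reached 8.55 at most, and the other 3 groups overlapped one another. Whether these groups lie above background was not measured, so no fold is given over them. Its SD was 0.19 in null P49 mice and 0.98 in wild-type P49 mice, and its pooled within-group SD of 0.90 compares with 0.17 to 0.21 for the other 4 genes. Without wild-type P49 replicate 1 the P49 difference was 1.5. Without the 3 P21 arrays named above it was 2.06 (adjusted p = 0.134), and without all 4 it was 1.96 (adjusted p = 0.261).

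At P49 the Ch25h values of the genotypes did not overlap. The sums of the microglia list, the vascular, meningeal and choroid plexus list and the astrocyte list were also higher in null P49 mice. Purkinje cell sums were lower in null P49 mice, and granule neuron sums overlapped. Oligodendrocyte and myelin sums, in units of 1000, were 389 to 392 in null P49 mice, against 397 to 422 in wild-type P49 mice. At P21 the microglia sums stayed apart between genotypes. The Ch25h values overlapped at P21, with a difference of 0.43 ± 0.68 on a dim probe set. This difference was too imprecise to tell whether Ch25h followed the microglia sums at P21. Of 17 listed microglia and macrophage markers 16 have a probe set, and 13 of them rose in null P49 mice, with a median of 2.28; Tyrobp, a signalling adaptor, rose by 3.55 and C1qa, a complement subunit, by 3.39. Their summed intensity, in units of 1000, was 155 to 198 in null P49 mice, against 33.7 to 35.3 in wild-type P49 mice. At P21 the sums were 53.9 to 64.2 in null mice, against 32.7 to 41.9 in wild-type mice, with 2 of 16 markers called higher. The vascular, meningeal and choroid plexus sums were 114 to 248 in null P49 mice, against 36.3 to 67.3 in wild-type P49 mice, with 0 of 15 markers called and 5 of 15 at an unadjusted p under 0.05. At P21 these sums were 35.4 to 235 in null mice, against 39.6 to 231 in wild-type mice. By replicate number, the null P21 sums were 35.4, 235 and 131, with Ch25h values of 7.91, 7.99 and 6.13. The wild-type P21 sums were 39.6, 231 and 207, with Ch25h values of 8.17, 6.27 and 6.31. Ttr, the brightest gene of this list at a mean of 15.61, differed by 3.12 at P49 (adjusted p = 0.448). The list median at P49 was 0.38, with 12 positive and 3 negative differences. Among them, Cldn5 differed by 0.56 (adjusted p = 0.197) and Tek by -0.47, while Pecam1, Kdr and Flt1 differed by -0.17, 0.02 and 0.10. Of 12 astrocyte and Bergmann glia markers, all with a probe set, 2 rose at P49, Gfap, a filament protein, by 3.30 and Aqp4, a water channel, by 0.94, with a list median of 0.11. Their sums were 631 to 687 in null P49 mice, against 512 to 530 in wild-type P49 mice, and 506 to 535 in null P21 mice, against 523 to 560 in wild-type P21 mice. The part of these marker lists in the Ch25h result was not tested.

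**Figure D2:**
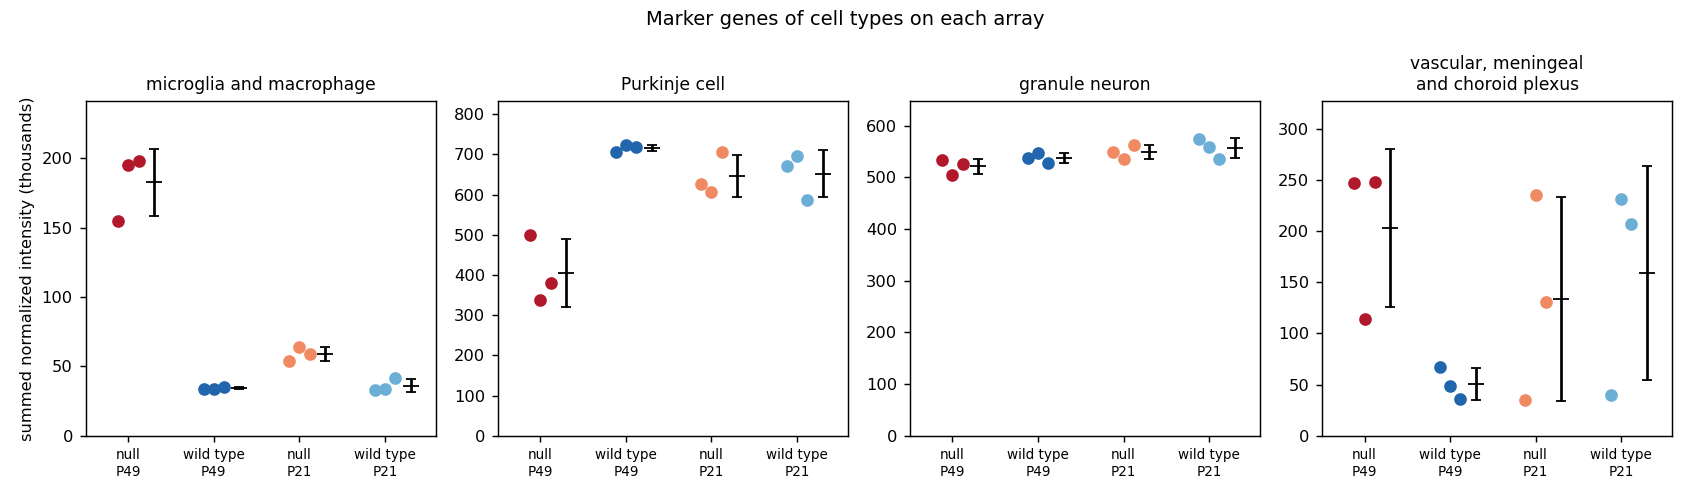
Summed normalized intensity, in units of 1000, of 4 marker lists, 1 point per array, with the group mean and SD (n = 3 per group). Microglia and macrophage sums are 155 to 198 in null P49 mice and at most 64.2 elsewhere, Purkinje cell sums are 337 to 499 in null P49 mice and at least 586 elsewhere, and granule neuron sums stay between 505 and 574.

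Cyp27a1 had log2 signals of 11.03, 10.73 and 10.84 in null P49 mice, against 11.39, 11.36 and 11.34 in wild-type P49 mice. All 3 null arrays were below the 3 wild-type arrays, which lay within an SD of 0.02. The difference at P49 was -0.50 ± 0.18 (95% interval -0.88 to -0.11), 0.709 of the wild-type level, with an adjusted p of 0.324. At P21 it had 11.07, 11.05 and 11.57 in null mice, against 11.33, 11.25 and 11.04 in wild-type mice, a difference of 0.03 ± 0.18 (95% interval -0.36 to 0.41). The P21 groups overlapped, and the P21 difference was -0.11 without the 3 P21 arrays named above. The genotype effect differed between the ages by -0.52 ± 0.25 (adjusted p = 0.729).

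Cyp46a1 had log2 signals of 12.29, 12.56 and 12.33 in null P49 mice, against 12.40, 12.14 and 12.44 in wild-type P49 mice. At P21 it had 12.26, 12.72 and 12.50 in null mice, against 12.63, 12.72 and 12.39 in wild-type mice. The groups overlapped at both ages. The difference was 0.06 ± 0.15 at P49 (95% interval -0.25 to 0.38, adjusted p = 0.96) and -0.09 ± 0.15 at P21 (95% interval -0.40 to 0.23, adjusted p = 0.892), and the first turned to -0.01 when arrays were centred on their median. Purkinje cells are among the neurons known to hold this enzyme. All 12 measured Purkinje markers, of 15 listed, fell at P49, with a median of -0.99, and 0 of 12 were called at P21, where 1 of 12 had an unadjusted p under 0.05. Their summed intensity, in the same units, was 337 to 499 in null P49 mice, against 707 to 723 in wild-type P49 mice. Granule neuron sums were 505 to 534 in null P49 mice and 528 to 547 in wild-type P49 mice.

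Nr1h3 had log2 signals of 10.51, 10.39 and 10.43 in null P49 mice, against 10.88, 10.61 and 11.05 in wild-type P49 mice. At P21 it had 10.54, 10.80 and 10.40 in null mice, against 10.03, 10.51 and 10.05 in wild-type mice. The null arrays were all lower at P49, while the P21 groups overlapped with the null mean above the wild-type one. The difference was -0.41 ± 0.22 at P49 (95% interval -0.87 to 0.06, adjusted p = 0.628) and 0.38 ± 0.22 at P21 (95% interval -0.08 to 0.84, adjusted p = 0.659). The test of the difference between the ages gave -0.79 ± 0.30 (95% interval -1.44 to -0.13), with an adjusted p of 0.596. In this interaction test 0 of 5 members were called, against 0.256% of all probe sets, and 1 of 5, Nr1h3, had an unadjusted p under 0.05, as had 7.01% of all probe sets.

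Osbp had log2 signals of 12.69, 13.07 and 13.21 in null P49 mice, against 12.83, 13.01 and 12.96 in wild-type P49 mice. At P21 it had 13.12, 13.17 and 12.89 in null mice, against 12.99, 13.13 and 12.94 in wild-type mice. Its 12 values spanned 0.52, and the groups overlapped at both ages. The difference was 0.06 ± 0.14 at P49 (95% interval -0.23 to 0.35, adjusted p = 0.958) and 0.04 ± 0.14 at P21 (95% interval -0.25 to 0.33, adjusted p = 0.943). With arrays centred on their median the P49 difference was -0.02.

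**Figure D3:**
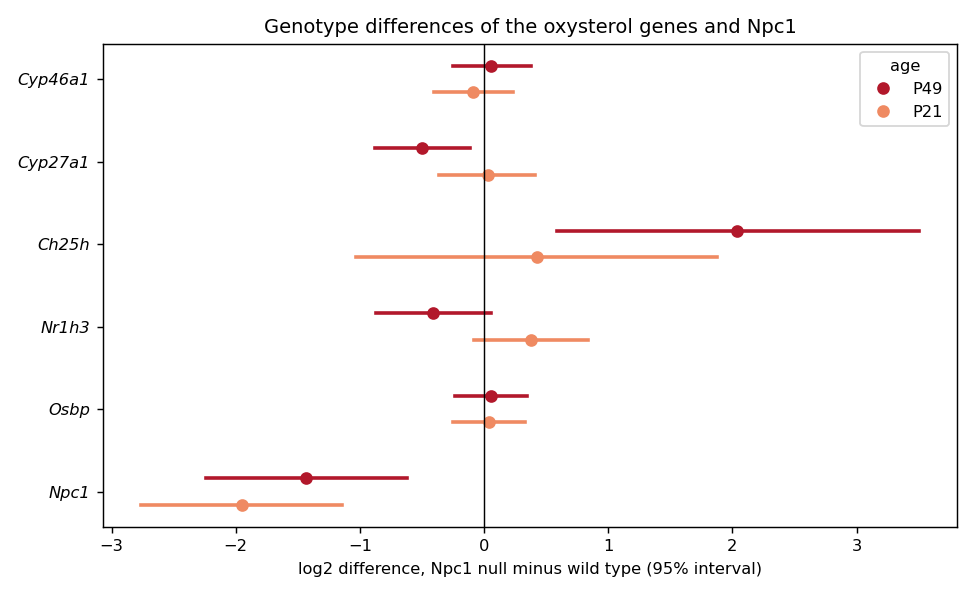
Log2 differences, null minus wild type, with 95% intervals from the limma fit, for the 5 measured genes and Npc1 at P49 and P21 (n = 3 per group). The P49 interval of Ch25h runs from 0.59 to 3.50 and that of Cyp27a1 from -0.88 to -0.11, while those of Cyp46a1, Nr1h3 and Osbp include 0.

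Age was compared within each genotype. In null mice 0 of 5 members were called with age, against 2.47% of all probe sets, and 1 of 5, Ch25h, had an unadjusted p under 0.05, as had 15.2% of all probe sets. Ch25h was higher on all 3 null P49 arrays than on all 3 null P21 arrays, by 2.49 ± 0.68 on the log2 scale (95% interval 1.03 to 3.94), with an adjusted p of 0.0767. Without null P21 replicate 3 the difference was 1.88 (adjusted p = 0.147). A pseudocount of 64 in place of 16 gave 2.14 with an adjusted p of 0.0456, and leaving out the 3 P21 arrays gave 1.93 with an adjusted p of 0.273. In wild-type mice 0 of 5 were called with age, against 0.278% of all probe sets, and 1 of 5, Nr1h3, had an unadjusted p under 0.05, as had 8.14% of all probe sets. Nr1h3 was higher on all 3 wild-type P49 arrays than on the wild-type P21 arrays, by 0.65 ± 0.22 or 1.57-fold (95% interval 0.19 to 1.11 on the log2 scale, adjusted p = 0.387). In null mice the age difference of Nr1h3 was -0.14 ± 0.22 (adjusted p = 0.815), and that of Cyp27a1 was -0.37 ± 0.18 (adjusted p = 0.353). Cyp46a1 and Osbp had age differences of -0.10 ± 0.15 and -0.07 ± 0.14 in null mice, and of -0.25 ± 0.15 and -0.09 ± 0.14 in wild-type mice. Without the 4 arrays that went against their sex label, the Cyp46a1 difference in null mice was 0.19. In wild-type mice the age difference of Ch25h was 0.87 ± 0.68 (adjusted p = 0.838), in the same direction as in null mice, and the groups overlapped. Cyp27a1 was higher on every wild-type P49 array than on every wild-type P21 array, by 0.16 ± 0.18 (adjusted p = 0.911). The lowest wild-type P49 value was 11.34 and the highest wild-type P21 value 11.33. In null mice Cyp27a1 was lower on every P49 array than on every P21 array. The share of all probe sets without overlap was not computed for the age comparisons.

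The genes around the members were taken as 5 lists, with 1 probe set per gene. Of 89 listed genes 71 have a probe set, and 5 of these rose and 0 fell at P49, or 7.04% against 1.39% of all probe sets. At P21 and in the other 3 comparisons 0 of 71 were called, with between 9 and 14 of 71 at an unadjusted p under 0.05 in each, where 7.01% to 15.2% of all probe sets had one. The list shares take the brightest probe set of each gene, while the shares beside them take all probe sets, dim ones included. A share over the brightest probe set of every gene was not computed. The lists were also chosen with earlier results of these data known, so the list share is a description. Called genes lay in only 2 of the lists.

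**Figure D4:**
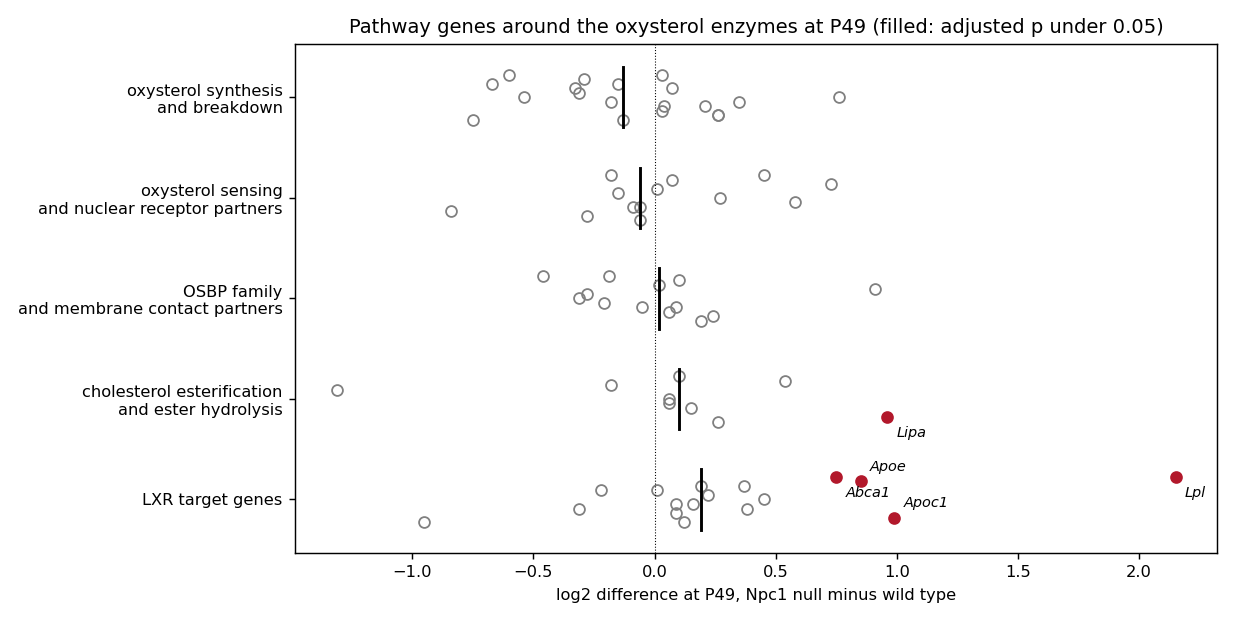
Log2 difference at P49, null minus wild type, of each listed gene, 1 point per gene, with a bar at the list's median and filled points for an adjusted p under 0.05 (n = 3 mice per group). Filled points are Lipa in the ester list and Apoe, Lpl, Abca1 and Apoc1 among the LXR targets, between 0.75 and 2.15.

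Of the 19 measured genes of oxysterol synthesis and breakdown, of 21 listed, 0 were called at P49, with 2 of 19 at an unadjusted p under 0.05, and the median difference was -0.13, against -0.02 over all genes. Of the 13 measured sensing genes, of 18 listed, 0 were called, 2 of 13 had an unadjusted p under 0.05, and the median was -0.06. Of the 13 measured genes of the OSBP family and its membrane partners, of 20 listed, 0 were called, 3 of 13 had an unadjusted p under 0.05, and the median was 0.02. Of all probe sets 9.44% had an unadjusted p under 0.05 at P49. These medians stood at -0.12, 0.11 and -0.12 at P21, against 0 over all genes.

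With Soat1 not analysed here, the ester list holds other genes of cholesterol esterification and of ester hydrolysis. Of its 9 measured genes, of 12 listed, 1 rose at P49 and the median was 0.10. At P49 2 of 9 had an unadjusted p under 0.05, as had 9.44% of all probe sets. At P21 0 of 9 were called and the median was 0.28, with 8 positive differences and 1 negative. An unadjusted p under 0.05 was found for 3 of 9 at P21 and for 8.00% of all probe sets. Lipa, the lysosomal acid lipase that frees cholesterol from ester upstream of Npc1, had 12.21, 12.14 and 12.57 in null P49 mice, against 11.12, 11.52 and 11.38 in wild-type P49 mice. All null arrays were higher, by 0.96 ± 0.18 (adjusted p = 0.0135). The call was lost without wild-type P49 replicate 1 (adjusted p = 0.0839) or without null P49 replicate 3 (adjusted p = 0.102).

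Of the 17 measured LXR target genes, of 18 listed, 4 rose at P49 and 0 fell, 14 had a positive difference, and the median was 0.19. Abca1, the exporter of cellular cholesterol, had 13.79, 14.27 and 14.16 in null P49 mice, against 13.30, 13.26 and 13.42 in wild-type P49 mice, a difference of 0.75 ± 0.15 (adjusted p = 0.0261). Apoe, the main apolipoprotein of the brain, had 17.09, 17.18 and 17.21 in null P49 mice, against 16.48, 16.14 and 16.29 in wild-type P49 mice, a difference of 0.85 ± 0.13 (adjusted p = 0.00367). Lpl, the lipoprotein lipase, had 11.03, 10.74 and 10.80 in null P49 mice, against 8.82, 8.43 and 8.86 in wild-type P49 mice. For each of these genes every null array lay above every wild-type array. The Lpl difference was 2.15 ± 0.36 (adjusted p = 0.00644), with the wild-type values below the 40th percentile of probe set means. Apoc1, a small apolipoprotein, rose by 0.99 ± 0.21 (adjusted p = 0.0319). The 3 targets with a negative difference were Abcg1, Abcg4 and Abcg5, none of them called. Abcg1 was lower on every null P49 array than on every wild-type P49 array, by -0.31 ± 0.16 (adjusted p = 0.59). Abcg4 and Abcg5 differed by -0.22 and -0.95, and their groups overlapped.

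Apoe kept its call in all 21 alternatives and Lpl in the 20 that tested it. Abca1 lost its call when arrays were centred on their median (adjusted p = 0.141), and without any 1 wild-type P49 array or null P49 replicate 2 or 3 (adjusted p 0.0651 to 0.17). Apoc1 lost its call without any 1 of the 6 P49 arrays (adjusted p 0.0654 to 0.18), without wild-type P21 replicate 2 (adjusted p = 0.0552), when only the 2 groups compared were fitted (adjusted p = 0.0543), and without the 4 arrays that went against their sex label (adjusted p = 0.103). Apoe, Apoc1, Lpl and Lipa are also known from activated microglia. Microglia marker sums were 155 to 198 in null P49 mice against 33.7 to 35.3 in wild-type P49 mice. Apoe and Abca1 are also known from astrocytes, whose marker sums were 631 to 687 in null P49 mice against 512 to 530 in wild-type P49 mice. Of the astrocyte markers only Gfap (3.30) and Aqp4 (0.94) were called at P49, and the list median was 0.11. At P21 the astrocyte sums were 506 to 535 in null mice against 523 to 560 in wild-type mice. The P21 differences of Apoe and Abca1 were 0.42 and 0.38, neither called. The part of either cell type in the rise was not tested. At P21 the median over the LXR targets was 0.11, and 3 of 17 had an unadjusted p under 0.05, as had 8.00% of all probe sets. These were Apoe and Abca1, which were higher, and Scd2, which was lower (-0.24). At P49 5 of 17 had an unadjusted p under 0.05, as had 9.44% of all probe sets.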

How the data were processed

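Cerebellar RNA of 12 mice was measured on 12 Affymetrix arrays, and per the labels each array is 1 animal. The authors deposited linear intensity values for 22690 probe sets, whose trimmed means lay between 5000 and 5006 on every array, and how probes were summarised is not given in the sources used here. Arrays carry no counts, so their number limits the precision. The ages come from the time point labels, since the treatment text gives P21 for every mouse. Here 64 control probe sets were left out, log2(deposited intensity + 16) was quantile normalized, and limma 3.58.1 (R 4.3.3; lmFit, eBayes with a trend) was fitted to 4 group means over 12 arrays, two-sided, with p adjusted by Benjamini-Hochberg over 22626 probe sets at 0.05. No dim probe set was left out, so that dim members stayed in. Of these probe sets 20380 have 1 gene symbol, 691 several and 1555 none; 20351 symbols were updated by Entrez ID through the RefSeq table of GRCm38.p6. Lists used the brightest probe set per gene.

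Named were all members, Npc1, and per list and comparison up to 4 called genes with the smallest p. The genes most like a member were to be named for called members, of which there were 0. Members and lists were chosen with earlier results of these data known. The 2 sex-linked genes and the promoters printed were singled out after values were seen. Alternatives were other pseudocounts, values as deposited, median centring, 1 probe set per gene without dim genes, only the groups compared, a replicate block, leaving out each array, and leaving out the arrays whose sex-linked genes went against their label.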

Additional observations from a re-analysis of the deposited data

How the results depend on the processing

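Over 21 alternatives the 5 measured genes gave 515 values, of which 489 kept their direction and side of the threshold, 25 changed sign and 1 passed the threshold; the cause was not tested. With a pseudocount of 64 the age comparison in null mice called 1 member, Ch25h, and every other alternative called 0 in each comparison it tested, leaving out single arrays included (0 to 0); the fit of only the groups compared gives no interaction. Adjusted p at P49 ran from 0.0708 to 0.681 for Ch25h, from 0.147 to 0.741 for Cyp27a1 and from 0.395 to 0.895 for Nr1h3; Ch25h was not tested where dim genes were left out. Among the sign changes, Cyp27a1 at P21 was -0.03 with values as deposited. It was -0.11 without the 3 P21 arrays or the 4 arrays that went against their sex label. Nr1h3 with age in null mice was 0.03 as deposited. Median centring gave -0.01 for Cyp46a1 and -0.02 for Osbp at P49, and -0.1 for the Osbp interaction. The Osbp interaction was also -0.1 without the 3 arrays. Cyp46a1 with age in null mice was 0.13 without the 3 and 0.19 without the 4 arrays. Both values were larger in size than the reported -0.1. Osbp with age in null mice was 0.02 without the 4 arrays. Leaving out 1 array at a time gave Ch25h ranges of 1.5 to 2.43 at P49, 0.1 to 1.05 at P21, 1 to 2 for the interaction, 1.88 to 2.82 with age in null mice and 0.49 to 1.5 with age in wild-type mice. It gave ranges of -0.03 to 0.12 (Cyp46a1) and -0.05 to 0.21 (Osbp) at P49, of -0.2 to 0.03 (Cyp46a1), -0.14 to 0.12 (Cyp27a1) and -0.01 to 0.13 (Osbp) at P21, of -0.21 to 0.01 (Cyp46a1) and -0.18 to 0.08 (Osbp) with age in null mice, and of -0.09 to 0.17 for the Osbp interaction. Same-numbered mice share only a number: their deviations correlated at -0.07 to 0.04, with 0 of 12 pairs over 0.1. With the replicate block 0 members were called, Ch25h at P49 was 2.04 (adjusted p = 0.325), Abca1 and Apoc1 missed the threshold (adjusted p 0.0547 and 0.0716), and the all-probe-set counts were 268 at P49 against 314, and 30 for the interaction against 58. Listed pathway genes called at P49 numbered 2 to 7 against 5. Over all alternatives the calls among all probe sets ran from 149 to 500 at P49 (314 as reported), 0 to 16 at P21 (7), 17 to 84 for the interaction (58), 128 to 855 for age in null mice (559) and 14 to 134 for age in wild-type mice (63). The Npc1 difference at P49 passed the threshold in 5 of 21 alternatives and at P21 in 1.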

Other observations

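Some listed genes that missed the threshold were picked out after their values were seen. Cyp7b1, which hydroxylates the products of Ch25h and Cyp27a1 further, was higher on all null P49 arrays than on all wild-type P49 arrays, by 0.76 ± 0.21 (95% interval 0.30 to 1.21), and did not pass limma's test (adjusted p = 0.141). Plin2, which coats lipid droplets, differed by 0.54 at P49 (adjusted p = 0.224) and by 0.61 at P21 (adjusted p = 0.427). Rora, a nuclear receptor of cerebellar neurons, differed by -0.28 at P49 (adjusted p = 0.49) and by 0.33 at P21 (adjusted p = 0.541), with a difference between the ages of -0.61 (adjusted p = 0.298).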
